A study of Mus musculus with 5 samples.

Results

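RNA Polymerase II ChIP-Seq intervals that followed PJ34 in both *Parp14* genotypes were examined in Th2 cells. An interval was called gained when it was present in *Parp14*+/+ + PJ34, overlapped an interval of *Parp14*−/− + PJ34 by at least 1 bp, and overlapped none in either untreated library. An interval was called lost when it was present in untreated *Parp14*+/+, overlapped an interval of untreated *Parp14*−/−, and overlapped none in either PJ34 library. There were 195 gained intervals, 1.62% of the 12014 in *Parp14*+/+ + PJ34, and 562 lost intervals, 4.81% of the 11692 in *Parp14*+/+. Together they made 757 of the 42775 intervals in the 4 libraries. The calls in these libraries chose the members, so their counts, lengths and heights are a description and carry no test.

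The cells were naive CD4+ CD62L+ T cells from spleens of C57BL6 mice of 6 to 8 weeks, either wild type (*Parp14*+/+) or lacking *Parp14* (*Parp14*−/−). All 4 cultures were stimulated through CD3 and CD28 in the Th2 condition, which is IL-4 at 10 ng/ml with an antibody to IFN-γ, over 3 days, and then grew for 4 days in 50 U/ml IL-2 with IL-4. One culture of each genotype received PJ34, and the Input library was a mixture with 50% from each genotype. The labels give 10 µM PJ34 added to differentiated cells, while the methods of the study give a lower dose present during culture. Nothing states whether cells of several animals were pooled. With 1 library per condition, an effect of the drug and a difference between cultures cannot be told apart. The authors reduced every library to the same number of alignments, and the median summit height, the number of overlapping fragments at the highest point of an interval, was 9 in each. The genome covered by intervals still ran from 65.55 Mb in *Parp14*−/− + PJ34 to 98.1 Mb in *Parp14*+/+. All 5 Th2 markers checked, *Gata3*, *Il4*, *Il5*, *Il13* and *Ccr8*, held an interval in both *Parp14*+/+ libraries, and 4 did in each *Parp14*−/− library. Of 5 B cell markers, *Cd79a* held one in *Parp14*+/+ + PJ34, of 5 myeloid markers *Csf1r* and *Cd68* held one in at least 1 library, and of 5 CD8 T and NK markers *Gzma* held one in all 4. Of 5 T cell markers, *Cd3d*, *Cd3e*, *Cd3g*, *Cd4* and *Cd28*, all held an interval in *Parp14*+/+, 4 in each PJ34 library and 3 in untreated *Parp14*−/−. Of 3 Th1 markers, *Ifng* and *Tbx21* held one in all 4 libraries and *Cxcr3* held one in none. Values of the 4 libraries are given below in the order untreated *Parp14*+/+, *Parp14*+/+ with PJ34, untreated *Parp14*−/−, *Parp14*−/− with PJ34, called the library order.

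RNA Polymerase II carries phosphate on serine 2 of its C-terminal repeats while it elongates a transcript, and this form accumulates along gene bodies toward their 3′ ends. The antibody used recognizes that form, so an interval marks chromatin occupied by elongating polymerase. PJ34 competes with NAD at the catalytic site of poly(ADP-ribose) polymerases and is not selective for a single member of the family. PARP-14 is a member that interacts with STAT6, the transcription factor of the IL-4 response. The comparison asks where the presence of polymerase went with the drug whether or not PARP-14 was there.

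The gained intervals with the highest signal were short. Ranked by the lower of the heights in both PJ34 libraries, 7 gained intervals reached at least 16 fragments, and 6 of them were shorter than 1 kb. The sequences of 200 bases around the summits of the top 3 are shown because they carried the highest gained signal, and that of *Opa1* because it had the largest ratio of heights in *Parp14*+/+ where all 4 libraries could be read, a choice made after its values were seen. They were read from the plus strand of NCBIM37 (mm9), with the summit at base 100. Capitals mark a match to any of 5 motifs searched on both strands. These were the STAT motif with a spacer of 3 bases, TTCNNNGAA, the STAT6 motif with the same ends around 4 bases, the motif of GATA factors written as AGATAA, the AP-1 motif with the letters TGANTCA, and the ETS motif CCGGAAGT. These 4 windows held none, so they stand in lower case.
*2610005L07Rik*, gained, chr8:20020286-20020485: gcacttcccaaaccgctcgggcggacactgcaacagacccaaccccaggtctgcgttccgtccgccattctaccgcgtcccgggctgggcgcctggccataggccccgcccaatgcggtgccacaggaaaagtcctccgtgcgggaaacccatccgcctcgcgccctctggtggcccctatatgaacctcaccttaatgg
*Gm10060*, gained, chr8:19784670-19784869: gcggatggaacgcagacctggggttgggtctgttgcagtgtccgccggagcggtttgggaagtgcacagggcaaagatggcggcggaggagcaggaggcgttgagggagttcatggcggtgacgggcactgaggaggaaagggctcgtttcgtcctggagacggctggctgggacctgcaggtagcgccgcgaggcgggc
No gene, gained, chr1:12634782-12634981: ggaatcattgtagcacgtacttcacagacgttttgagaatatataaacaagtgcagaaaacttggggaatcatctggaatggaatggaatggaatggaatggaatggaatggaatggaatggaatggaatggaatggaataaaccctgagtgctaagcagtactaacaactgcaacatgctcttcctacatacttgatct
*Opa1*, gained, chr16:29579326-29579525: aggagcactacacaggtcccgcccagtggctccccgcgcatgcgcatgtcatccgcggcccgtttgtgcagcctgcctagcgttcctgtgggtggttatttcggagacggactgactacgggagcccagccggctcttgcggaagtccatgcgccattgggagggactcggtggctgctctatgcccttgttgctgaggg

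The window in *2610005L07Rik*, a processed transcript, and that in *Gm10060*, a pseudogene, shared a stretch of 40 bases on opposite strands. Of the 32-base words of each window, 45% in *2610005L07Rik* and 81.7% in *Gm10060* occurred elsewhere in the genome, against 0% at *Opa1*. The methods of the study keep uniquely mapped alignments, and the part of such copies in these 2 intervals was not tested. The window on chromosome 1, which lay in no annotated gene, held 13 tandem copies of TGGAA over 65 bases, and 21.9% of its words occurred elsewhere. Across all gained intervals, 7 of 195 windows (3.59%, Wilson 95% interval 1.75 to 7.22%) had at least 50% of their words elsewhere, against 1.09% of all *Parp14*+/+ + PJ34 intervals. Of the gained intervals shorter than 1 kb, 3 of 23 did (13.04%, 4.538 to 32.13%), against 3.797% of all such intervals in the library. In the lost group the share was 1.07% (6 of 562), against 0.992% of all *Parp14*+/+ intervals. Intervals on shares, ratios and heights here cover counting error only and no difference between cultures.

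The *2610005L07Rik* interval (chr8:20019751-20020500) had a height of 37 in both PJ34 libraries, and the nearest interval of an untreated library lay 1950 bp away. The interval in no gene on chromosome 1 (chr1:12634801-12635400) had 29 fragments (exact Poisson 95% interval 19.4 to 41.6) in *Parp14*+/+ + PJ34 and 25 (16.2 to 36.9) in *Parp14*−/− + PJ34. *Gm10060* (chr8:19784551-19785300) had 24 and 26, in the same order. Both libraries put the summit of each of these 3 intervals within 64 bases of each other. Another interval in no gene, on chromosome 13 (chr13:58868101-58869900), had 16 in each, and one on chromosome 6 (chr6:132413701-132414600) had 19 and 13. On chromosome 13 the *Parp14*−/− + PJ34 partner covered only the last 150 bp of the 1800 bp interval.

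Among protein-coding genes, the highest gained intervals lay mostly at transcription start sites, as did the highest lost ones. Over all gained intervals the share at such a start site was 18.97%, against 19.87% of all *Parp14*+/+ + PJ34 intervals. *Hist1h3e*, a gene for core histone H3, had 20 fragments (12.2 to 30.9) in *Parp14*+/+ + PJ34 and 19 (11.4 to 29.7) in *Parp14*−/− + PJ34, in an interval of 300 bp over its start. *Hist1h4f*, a gene for histone H4 in the same cluster on chromosome 13, had 13 and 14, and *Hist1h4i*, also for histone H4, had 11 and 11. Histone genes exist in near-identical copies. Of the words around the summit, 27.8% at *Hist1h3e*, 26.6% at *Hist1h4f* and 68.6% at *Hist1h4i* occurred elsewhere. The counts at these copies are therefore uncertain, most of all at *Hist1h4i*. *Vwf*, which encodes the von Willebrand factor made by endothelial cells and platelets, had 25 (16.2 to 36.9) and 17 (9.9 to 27.2) within the same 150 bp inside the gene in both libraries, and its nearest untreated interval lay 258750 bp away.

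*Opa1*, a GTPase of mitochondrial inner membrane fusion, had 19 (11.4 to 29.7) and 16 (9.15 to 26.0) in an interval of 750 bp at its start site on chromosome 16 (chr16:29579251-29580000). The nearest untreated interval was 727050 bp away, so no interval touched the rest of the gene in either untreated library. *Ints5*, a subunit of the Integrator complex that cleaves nascent RNA, had 15 and 14 at its start. *Slc35c1*, the GDP-fucose transporter of the Golgi, had 12 and 12, and *Nrf1*, a transcription factor of mitochondrial genes, had 13 and 11, both at their starts. *Tnip1*, an inhibitor of NF-κB signalling, had 12 and 14 inside the gene, with an untreated interval 900 bp away. The others of the 12 highest were *Tm9sf4* (13 and 15), *2810407C02Rik* (17 and 13), *AU019823* with *Pih1d2* (15 and 11) and *Sepw1*, for selenoprotein W (13 and 11). Each of these 4 covered a start site in *Parp14*+/+ + PJ34. The *Parp14*−/− + PJ34 partner at *Sepw1* did not reach the start and ran past the end of the gene. An untreated interval lay 150 bp from the one at *Sepw1* and 1350 bp from that at *AU019823* with *Pih1d2*. Over the 1 active region, a stretch of merged intervals, heights in the library order were 11, 13, 9 and 11 at *Sepw1*. At *AU019823* with *Pih1d2* they were 17, 20, 10 and 15. In both, untreated *Parp14*+/+ was at least as high as *Parp14*−/− + PJ34.

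The longest gained interval covered the start of *Cd84*, a receptor of the SLAM family on lymphocytes, over 10050 bp with 10 fragments in *Parp14*+/+ + PJ34. Its partner in *Parp14*−/− + PJ34, with 6 fragments, lay wholly upstream of the gene. Others of the 5 longest lay in *Kdm2b*, a histone demethylase (8850 bp, 8 and 7), across the end of *Arhgap22* (8100 bp, 6 and 6) and at the start of *Fap* (7500 bp, 8 and 5). The *Parp14*−/− + PJ34 partner lay wholly past the end of *Arhgap22*, and at *Fap* wholly upstream of the start. The second height of each of these pairs was therefore outside the named gene. The *Kdm2b* interval ended with 0 bases between it and an untreated interval.

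**Figure D1:**
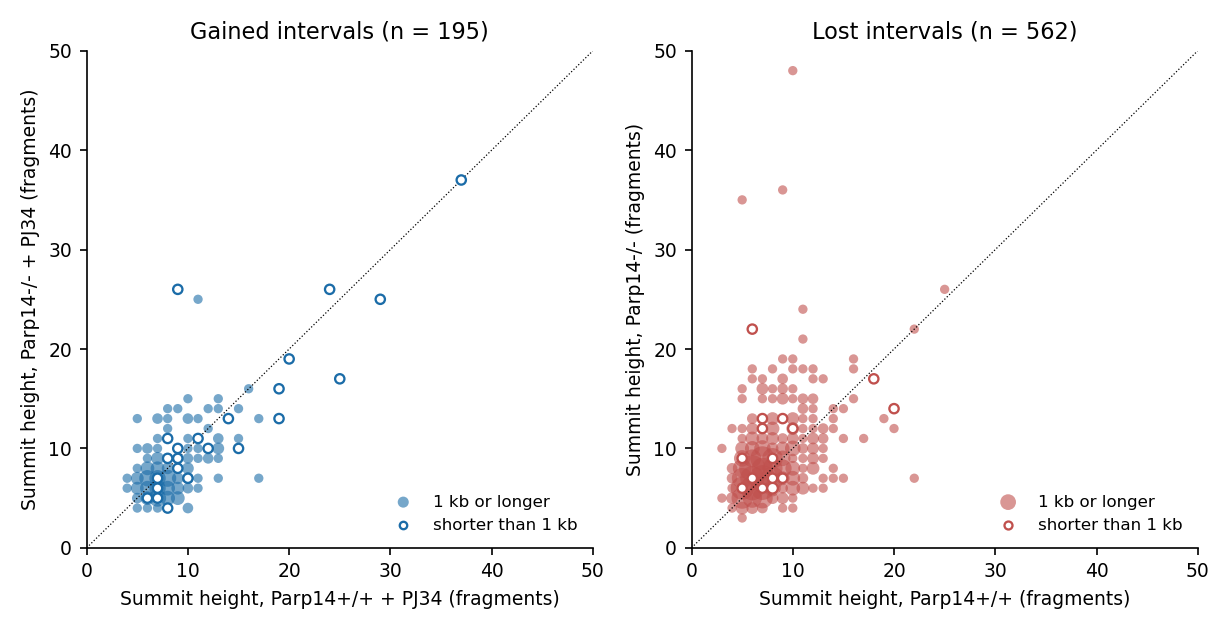
Summit heights, in fragments, of the 195 gained intervals (left) and the 562 lost intervals (right) in the 2 libraries that hold them, with *Parp14*+/+ on the x axis and *Parp14*−/− on the y axis. Larger points stand for more intervals, open points are shorter than 1 kb and the dotted line marks equal heights. Median heights are 7 or 8 in each of the 4 libraries, and 6 of the 7 gained intervals with at least 16 in both are open points.

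The lost intervals were more numerous, and 5 of them had at least 16 fragments in both untreated libraries, of which 1 was shorter than 1 kb. A few had a far higher partner in *Parp14*−/−. These were *Gm14005* with 10 in *Parp14*+/+ and 48 in *Parp14*−/−, *Prcc* with 9 and 36, and *Tars2* with 5 and 35, named after their values were seen, and in each the summit of the partner lay outside the lost interval. Windows of 200 bases around the 3 highest are printed with the same settings as above, as are those at *Taf13* and *Dhrs9*, which were added after their values were seen because their heights in the PJ34 libraries are known. Capitals mark a match to the STAT6 motif in *1600002K03Rik*, past the end of the adjacent *Cirbp*, and to the ETS motif at *Taf13*.
*Cirbp* and *1600002K03Rik*, lost, chr10:79635710-79635909: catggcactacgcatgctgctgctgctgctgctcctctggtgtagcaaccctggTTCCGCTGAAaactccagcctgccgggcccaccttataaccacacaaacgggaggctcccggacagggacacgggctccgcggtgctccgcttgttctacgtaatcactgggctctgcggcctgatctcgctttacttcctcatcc
No gene, lost, chr10:95863486-95863685: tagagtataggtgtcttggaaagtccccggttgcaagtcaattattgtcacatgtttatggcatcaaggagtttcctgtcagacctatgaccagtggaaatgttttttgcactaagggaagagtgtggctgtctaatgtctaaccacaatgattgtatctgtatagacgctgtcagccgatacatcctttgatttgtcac
*Ccnd3*, lost, chr17:47644958-47645157: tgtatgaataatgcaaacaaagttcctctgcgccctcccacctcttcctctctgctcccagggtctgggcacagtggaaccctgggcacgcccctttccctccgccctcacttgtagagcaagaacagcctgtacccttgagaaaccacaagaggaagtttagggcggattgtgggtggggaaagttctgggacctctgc
*Taf13*, lost, chr3:108374558-108374757: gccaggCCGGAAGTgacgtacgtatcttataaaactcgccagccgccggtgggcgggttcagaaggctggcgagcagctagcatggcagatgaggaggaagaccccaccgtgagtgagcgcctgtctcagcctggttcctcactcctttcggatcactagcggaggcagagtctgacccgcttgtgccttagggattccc
*Dhrs9*, lost, chr2:69218526-69218725: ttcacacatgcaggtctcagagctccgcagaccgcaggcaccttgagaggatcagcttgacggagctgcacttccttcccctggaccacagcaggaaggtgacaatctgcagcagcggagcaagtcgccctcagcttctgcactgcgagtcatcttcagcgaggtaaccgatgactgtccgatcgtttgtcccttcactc

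A lost interval (chr10:79634851-79636200) covered the end of *Cirbp*, a cold-inducible RNA-binding protein, and the start of *1600002K03Rik*. Its summit in *Parp14*+/+ lay in *1600002K03Rik*, past the end of *Cirbp*. Its height was 25 (16.2 to 36.9) in *Parp14*+/+ and 26 (17.0 to 38.1) in *Parp14*−/−. An interval of a PJ34 library lay 2100 bp away. The deposited gene table lists *Cirbp* with 1 active region whose height was 25, 42, 49 and 48 in the library order. The region as a whole was not lower in *Parp14*+/+ + PJ34 than in *Parp14*+/+, and the loss applies to the 1350 bp of the interval alone. The interval in no gene on chromosome 10 (chr10:95861851-95864250) had 22 in both untreated libraries, and a second one there (chr10:18780151-18783750) had 16 and 18. *Ccnd3*, cyclin D3 of the G1 phase, had 18 (10.7 to 28.4) and 17 (9.9 to 27.2) in 900 bp inside the gene, with the nearest PJ34 interval 14250 bp away. Over its 3 active regions the gene table gives *Ccnd3* an average height of 14, 9, 12.67 and 10 in the library order.

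At start sites, *Taf13*, a subunit of the general transcription factor TFIID, had 16 in *Parp14*+/+ and 19 in *Parp14*−/−. *Cops7a*, a subunit of the COP9 signalosome, had 16 and 15, and the nearest PJ34 interval was 51750 bp away. *Smarca4*, the ATPase of the SWI/SNF chromatin remodeller, had 13 and 17. *Kcnn4*, a calcium-activated potassium channel of activated T cells, had 20 and 14, with a PJ34 interval 750 bp away. *Dhrs9*, a retinol dehydrogenase, had 19 and 13. An interval over the start of *Slc25a10*, a mitochondrial dicarboxylate carrier, and the end of *Mrpl12*, of the mitochondrial ribosome, had 20 and 12. The gene table gives each of these genes 1 active region, with heights of 32, 22, 16 and 23 in the library order. In *Parp14*−/− this height was higher with PJ34 although the call was lost. *Ankrd49* with *Mre11a*, a nuclease of double-strand break repair, had 15 and 14, and *Prkrir* had 14 and 13. An interval over the start of *Ifrd2* and the end of *Hyal3* had 14 and 14. *Ncs1*, a neuronal calcium sensor, had 14 and 12 inside the gene, and its interval and that of *Prkrir* had 0 bases between them and a PJ34 interval. The third lost interval in no gene (chr2:102819601-102822750) had 12 and 17. The longest lost intervals lay at *Fbrs* (18300 bp, 10 and 6), *Gnb1*, a G protein β subunit (18150 bp, 9 and 8), *Ss18*, a subunit of the SWI/SNF complex (17700 bp, 11 and 10), *Frmd6* (16200 bp, 9 and 5) and *Phrf1* (16200 bp, 8 and 7). At *Fbrs* the *Parp14*−/− partner lay wholly past the end of the gene.

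The number of intervals that followed PJ34 in the same direction in both genotypes was set beside that of the crossed patterns, which pair a PJ34 library of one genotype with the untreated library of the other. A *Parp14*+/+ + PJ34 interval overlapped one of *Parp14*−/− + PJ34 in 7076 cases, and 195 of these (2.756%, 2.399 to 3.164%) were gained. It overlapped one of untreated *Parp14*−/− in 7785 cases, and 316 of these (4.059%, 3.643 to 4.521%; 2.63% of the library) were in neither of the other 2 libraries. A *Parp14*+/+ interval overlapped one of untreated *Parp14*−/− in 7151 cases, of which 562 (7.859%, 7.258 to 8.506%) were lost, and one of *Parp14*−/− + PJ34 in 6396 cases, of which 270 (4.221%, 3.755 to 4.742%; 2.31% of the library) were in neither of the other 2. The gained share therefore lay below both crossed shares and the lost share above both. Differences in how much each library covered move with these shares, and their part in them was not tested.

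**Figure D2:**
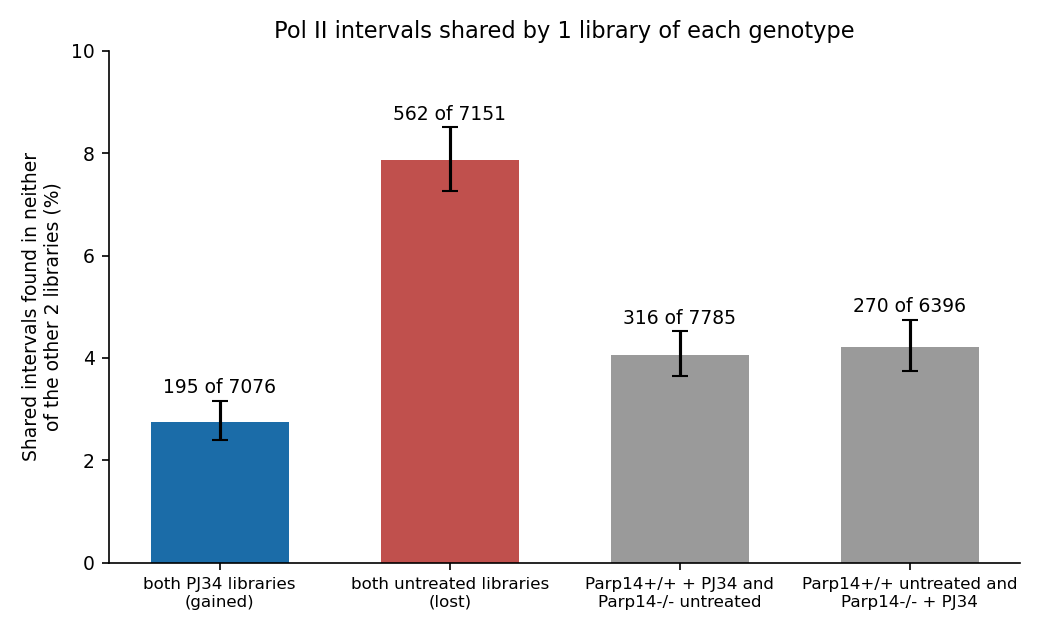
Share of *Parp14*+/+ intervals shared with 1 *Parp14*−/− library that overlapped neither of the other 2 libraries, in percent, with the counts above the bars and Wilson 95% intervals as error bars. The gained share (195 of 7076) is the lowest and the lost share (562 of 7151) the highest of the 4 patterns, with the crossed patterns (grey) between them.

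Without regard to the other genotype, 20.7% of the *Parp14*+/+ + PJ34 intervals (2492) had none in *Parp14*+/+. Of these 2492, 195 overlapped an interval of *Parp14*−/− + PJ34 alone, 316 one of untreated *Parp14*−/− alone, 274 one of each and 1707 neither. In the other direction 30.1% of the *Parp14*+/+ intervals (3517) had none in *Parp14*+/+ + PJ34, and these comprised the 562 lost, 270 found in *Parp14*−/− + PJ34 alone, 428 in both and 2257 in neither. In *Parp14*−/− 19.8% of the PJ34 intervals (1754) had none in the untreated library and 31.8% of the untreated intervals (3251) had none in the PJ34 library. Of these, 39.11% and 33.19% were in neither *Parp14*+/+ library and 33.98% and 38.11% in both. The share found in neither library of the other genotype was higher for the *Parp14*+/+ intervals, at 68.5% (1707 of 2492) and 64.17% (2257 of 3517). Intervals of both *Parp14*+/+ libraries and neither *Parp14*−/− library made 13.9% of the *Parp14*+/+ + PJ34 intervals (1673) and 12.5% of the *Parp14*+/+ intervals (1467), and those of both *Parp14*−/− libraries alone made 3.41% of the *Parp14*−/− intervals (349).

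Gained intervals had a median length of 2850 bp (quartiles 1650 and 4200, range 150 to 10050), against 4350 bp for all intervals of their library, and lost intervals one of 3750 bp (2400 and 5400, range 450 to 18300), against 5250 bp. Intervals shorter than 1 kb made 11.79% of the gained group (23; 7.989 to 17.08%) against 4.603% of the library, and 2.847% of the lost group (16; 1.76 to 4.574%) against 2.198%. The median height was 8 in *Parp14*+/+ + PJ34 and 7 in *Parp14*−/− + PJ34 for gained intervals, and 7 in *Parp14*+/+ and 8 in *Parp14*−/− for lost ones. Heights of at least 20 were found in 5 gained (2.564%, 1.1 to 5.861%) and 5 lost intervals (0.8897%, 0.3806 to 2.066%), against 7.808% and 7.535% of their libraries. A longer interval has more chances to overlap another, so the rule itself bears on length. The crossed patterns had medians of 2700 bp and 8 fragments, and of 3525 bp and 7 fragments.

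**Figure D3:**
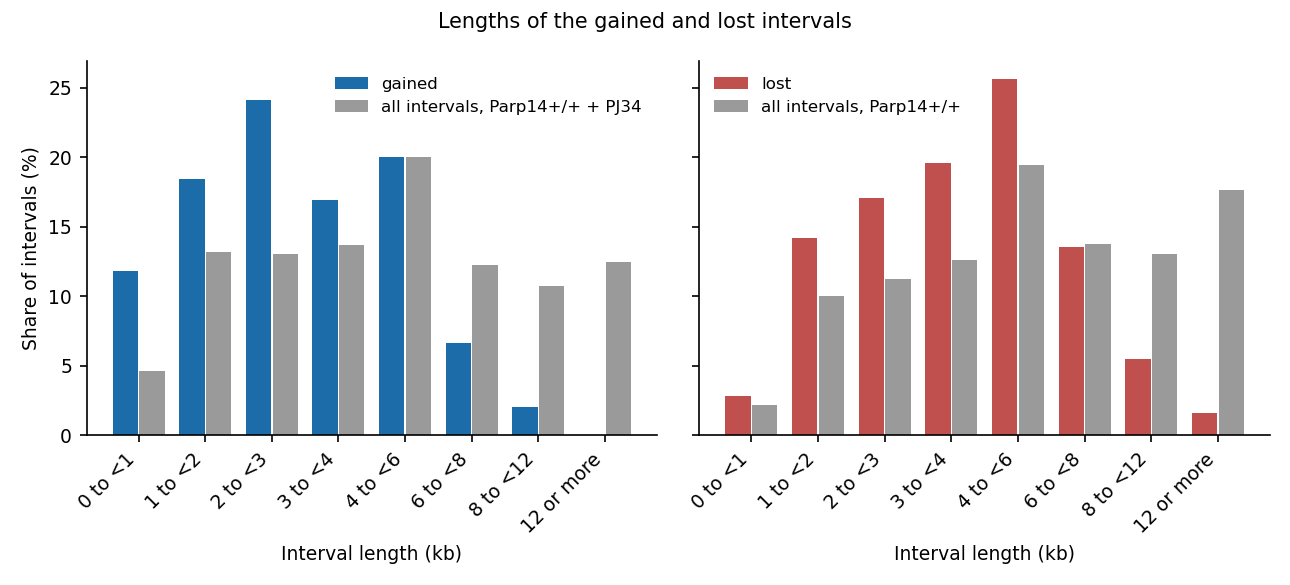
Share of intervals, in percent, by length in kb for the gained intervals (blue) beside all *Parp14*+/+ + PJ34 intervals (grey, left) and for the lost intervals (red) beside all *Parp14*+/+ intervals (grey, right). None of the 195 gained and 9 of the 562 lost intervals were 12 kb or longer, while 12.45% and 17.66% of their libraries were.

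Both libraries that held a member often placed it differently. The partner library covered a median of 68.42% of a gained and 64.14% of a lost interval, and the 2 summits lay a median of 912 bp and 1125.5 bp apart. The smallest overlap with the partner was 150 bp, which 7 gained and 10 lost intervals had. On the other side of the rule, 8 intervals were kept out of the gained and 4 out of the lost group by an overlap of 150 bp or less with an excluded library, where excluded means a library that must hold no interval. The nearest excluded interval was a median of 3900 bp from a gained and 5400 bp from a lost interval. It lay within 1 kb of 48 gained (24.62%, 19.1 to 31.11%) and 95 lost intervals (16.9%, 14.03 to 20.22%), and within 5 kb of 109 (55.9%, 48.88 to 62.69%) and 270 (48.04%, 43.94 to 52.17%). The crossed patterns had median distances of 4500 bp and 3525 bp.

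Most members lay in genes that kept an interval elsewhere. An annotated gene was overlapped by 159 gained intervals (81.54%, 75.5 to 86.36%) against 88.16% of their library, and by 492 lost intervals (87.54%, 84.56 to 90.02%) against 90.5%. A protein-coding gene was overlapped by 155 gained (79.49%) and 483 lost intervals (85.94%). In 123 of the 155 (79.35%, 72.31 to 84.98%) and 409 of the 483 (84.68%, 81.19 to 87.62%) the same gene also held an interval of an excluded library. Of all library intervals at a protein-coding gene that overlapped no interval of the excluded libraries, 72.98% and 78.21% lay in such a gene, and in the crossed patterns described above 85.83% and 81.67% did, so this was common to intervals of these kinds. The gained intervals touched 164 protein-coding genes and left 42 with no excluded interval, and the lost ones touched 437 and left 100. The 42 included *Hist1h3e*, *Vwf*, *Opa1*, *Ints5* and *Slc35c1* described above, *Zmat1*, *Marcksl1*, *Mfn2* of mitochondrial outer membrane fusion (10 and 7), *Herpud1* of the endoplasmic reticulum stress response (8 and 9) and *Uqcrc2* of respiratory complex III (7 and 6). The intervals at *Herpud1* and *Uqcrc2* covered the end of the gene and lay mostly past it, that at *Uqcrc2* also in *Pdzd9*. Their heights may therefore lie outside the named gene. The 100 included *Cog5* of the Golgi (12 and 18), *Lmna*, which encodes the nuclear lamins A and C (11 and 15), and *Btla*, an inhibitory receptor of lymphocytes (10 and 10). These were chosen after their values were seen.

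Lost intervals covered start sites, and had summits in the last 20% of a gene, in lower shares than their library did. The start site of a protein-coding gene was covered by 70 lost intervals (12.46%, 9.978 to 15.44%) against 21.87% of all *Parp14*+/+ intervals, and by 37 gained ones (18.97%) against 19.87% of their library. Gene bodies without the start held 413 lost intervals (73.49%, 69.69 to 76.97%) against 67.11%, and 118 gained ones (60.51%) against 66.59%. Among members whose summit lay in a protein-coding gene, the last 20% of the gene length held 72 lost summits (16.94%, 13.67 to 20.8%) against 22.42%, and 29 gained summits (20.86%) against 23.35%. The first 20% held 44 of 139 gained summits (31.65%) against 24.17%, and 109 lost ones (25.65%) against 24.77%. Exons held 14.35% of lost summits against 21.03%, and 17.99% of gained summits against 20.71%. Outside genes and the 5 kb after them lay 22 gained (11.28%, 7.57 to 16.49%) and 45 lost intervals (8.007%, 6.038 to 10.55%), against 6.501% and 5.482%. The gene around a lost interval had a median length of 66.69 kb (quartiles 29.36 and 118.2), against 54.54 kb per interval of the library, and that around a gained interval 53.92 kb against 57.23 kb. None of these differences was tested, and intervals of 1 gene are not independent. Lost intervals were also shorter and less often high than those of their library, and the part of this in the shares was not tested.

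Of the lost intervals, 2 fell in the same gene in 44 genes and 3 or more in 14, while for the gained ones 5 genes held 2. These genes were chosen after their values were seen. *Elmo1*, a partner of DOCK proteins in the activation of Rac, is a gene of 515.9 kb on the plus strand of chromosome 13 and held 10 lost intervals. Intervals covered 62.38, 41.73, 52.31 and 30.19% of it in the library order, with 44, 42, 38 and 27 intervals. *Snd1*, a nuclease of 460 kb of gene, held 6, and its coverage was 29.25, 26.77, 13.37 and 8.836% in that order. *Efna5*, an ephrin ligand of 277.1 kb, held 5, with 70.19, 27.81, 60.23 and 26.14%. In *Efna5* coverage was thus lower in both PJ34 libraries than in either untreated one, while in *Snd1* both *Parp14*−/− libraries were below both *Parp14*+/+ libraries.

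A further 11 genes held 3 lost intervals each. *Adam10*, a membrane protease, was covered by intervals over 65.33, 18.01, 34.31 and 8.429% of its length in the same order, and *Ss18* over 73.94, 15.95, 49.67 and 16.3%. *Wdr3* was covered over 63.35, 13.82, 42.92 and 0%, and *Arhgap17*, a GTPase activating protein, over 27.36, 14.47, 21.08 and 0%. Coverage was lower with PJ34 in both genotypes in each of these 4. Over the whole libraries it was also lower, at 98.1, 82.36, 73.81 and 65.55 Mb in the library order, and the part of this in the genes was not tested. *Hivep2*, a zinc finger transcription factor, was the gene among the 14 with a near equal value in *Parp14*−/−, 64.81% without and 64.16% with PJ34, against 57.43 and 34.73% in *Parp14*+/+. The others were *Atxn1*, *Bdp1* of the TFIIIB complex, *Ppp1r12a* of myosin phosphatase, *Rasa2*, a Ras GTPase activator, *Rnf111*, a ubiquitin ligase, and *Spag9*, a scaffold of JNK signalling. As the genes were chosen by their lost intervals, this coverage is a description.

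The gained intervals fell 2 to a gene in *Nrf1*, *Pecam1*, *Tm9sf4*, *Vav3* and *Zmiz1*. *Nrf1* was covered over 0, 7.597, 5.547 and 17.13% of its length in the library order. *Pecam1*, an adhesion molecule of the immunoglobulin family, was covered over 12.6, 33.14, 22.25 and 38.16%, higher with PJ34 in both genotypes. *Vav3*, a guanine nucleotide exchange factor, had 2 gained intervals although its coverage was lower with PJ34, at 79.47, 68.34, 71.39 and 64.78%. *Zmiz1* had 45.81, 45.88, 31.43 and 44.22%, and *Tm9sf4* 33.67, 24.03, 20.24 and 27.69%.

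**Figure D4:**
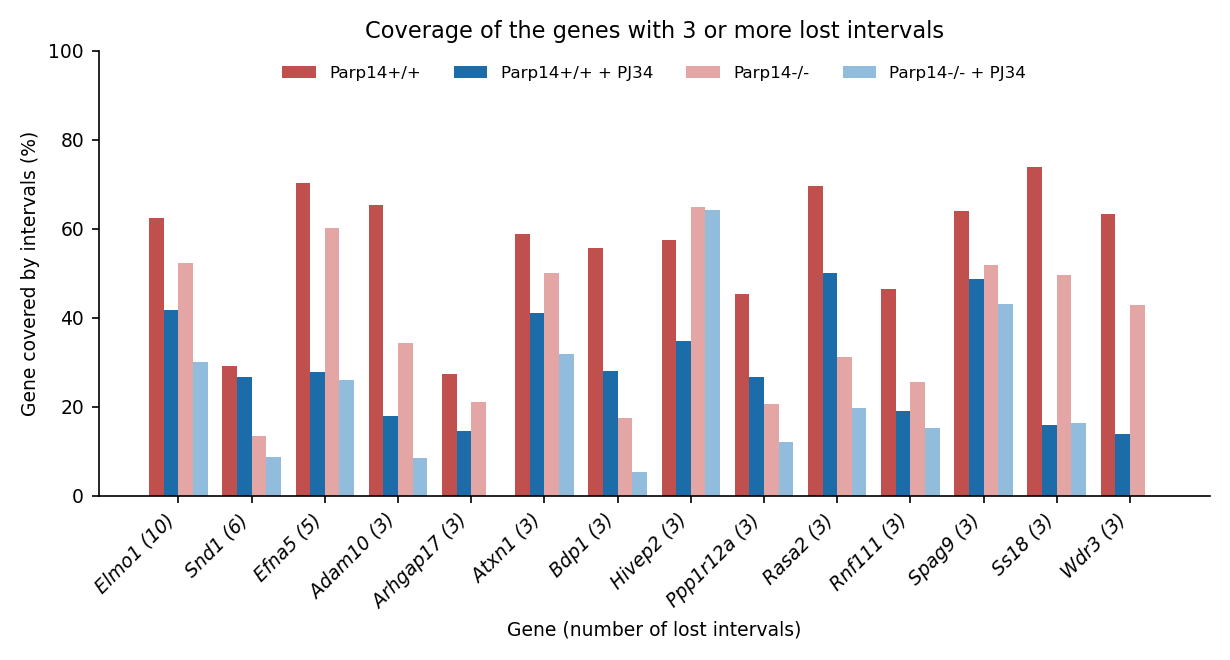
Share of gene length covered by intervals, in percent, in the 4 libraries for the 14 genes with 3 or more lost intervals, whose number stands in brackets. In *Efna5*, *Adam10* and *Ss18* both PJ34 bars (blue shades) lie below both untreated bars (red shades), while *Hivep2* has near equal bars in *Parp14*−/−.

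Whether polymerase was gone where a call was gone could be read for a subset. The gene table gives heights in all 4 libraries, called or not, and where a line of the table covers a single active region that height belongs to 1 place. The line can be that of the named gene or of another gene at the same region. An active region is a stretch of intervals merged over all libraries of the table, so a height without a call is the highest point anywhere in that stretch. Heights in 4 libraries were obtained for 14 gained and 41 lost intervals whose active region held no interval of an excluded library. The table's heights also had to equal those of the interval and its partner in both libraries that hold them. The 41 lie in 40 active regions, since 2 in *Spag9* share 1 region and its heights. In 7 of the 14 gained intervals both PJ34 heights were above both untreated heights, against 9.57% of all 2906 active regions with 1 height per library, which may hold intervals of any library. In 13 of the 41 lost intervals both untreated heights were above both PJ34 heights, against 11.7%. These heights come from the same libraries as the rule, so nothing is read from the comparison. In the other 7 gained and 28 lost intervals a library without a call was at least as high as one with it.

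*Opa1* had 7, 19, 8 and 16 fragments in the library order. Both PJ34 values were above both untreated ones, and the ratio in *Parp14*+/+ was 2.71 (exact Clopper-Pearson 95% interval 1.09 to 7.64). The ratio in *Parp14*−/− was 2.00 (0.808 to 5.40). *Opa1* was singled out after its values were seen and by calls in these same libraries, so the ratios describe it and test nothing. *Slc35c1* had 7, 12, 9 and 12 in the same order, *Hist1h4i* 7, 11, 7 and 11, and *Marcksl1* with *Hdac1*, a histone deacetylase, 6, 10, 5 and 13. In these 3 the PJ34 heights were also above both untreated ones, by less than the counting error. *Arhgap27* had 7, 17, 7 and 7, with a ratio of 2.43 (0.957 to 6.93) in *Parp14*+/+ that includes 1, and *Nrf1* had 7, 13, 12 and 11, where untreated *Parp14*−/− was as high as the PJ34 libraries without a call. *Mfn2* had 7, 10, 8 and 7.

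Among the lost intervals *Dhrs9* had 19, 5, 13 and 8, and its *Parp14*+/+ + PJ34 to *Parp14*+/+ ratio was 0.263 (0.0768 to 0.729). The ratio in *Parp14*−/− was 0.615 (0.221 to 1.6), and both ratios are a description, as for *Opa1*. *Ell*, an elongation factor of RNA Polymerase II, had 17, 11, 11 and 7 at its start, and *Hyal3* with *Ifrd2* 14, 10, 14 and 11. *Ankrd49* with *Mre11a* had 15, 11, 14 and 12. In the last 2 pairs both untreated heights lay above both PJ34 heights by less than the counting error. *Taf13* had 16, 15, 19 and 19, so its call was lost in both genotypes without a measurable difference in height.

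**Figure D5:**
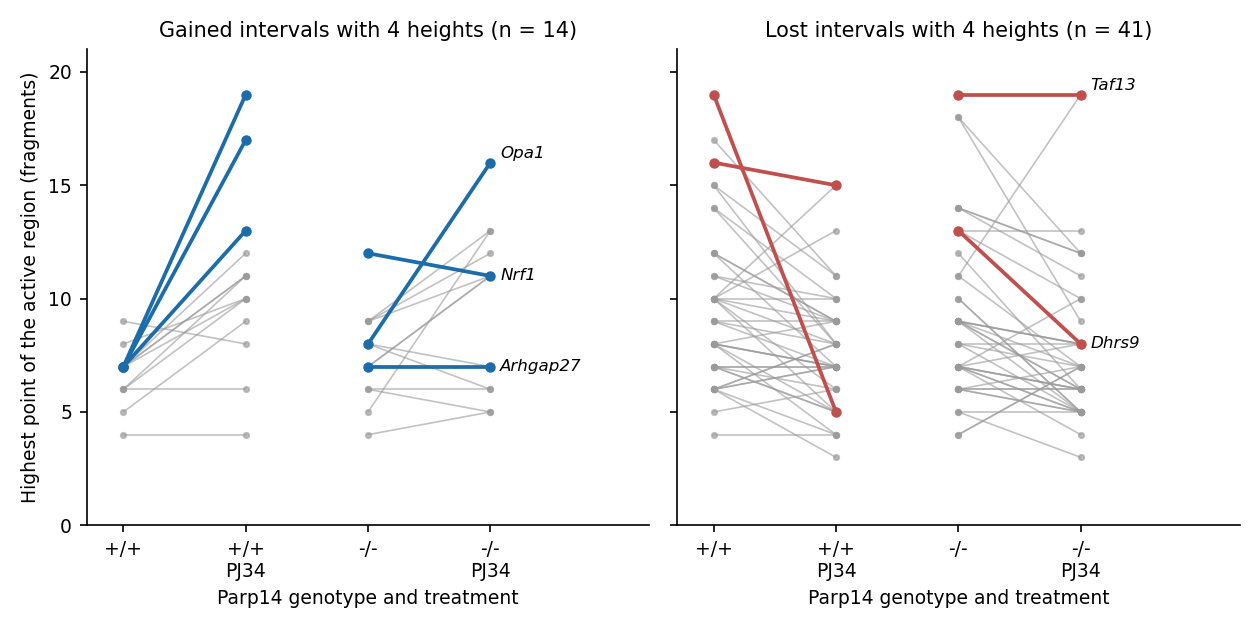
Highest point of the active region, in fragments, in the 4 libraries for the 14 gained (left) and 41 lost intervals (right) for which it is known, with a line for each interval joining the untreated and PJ34 libraries of a genotype. Coloured lines are *Opa1*, *Nrf1* and *Arhgap27* on the left and *Dhrs9* and *Taf13* on the right, and other lines run in either direction.

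Over whole genes the difference was small. Gene table heights at the 163 listed genes of the gained intervals had a median *Parp14*+/+ + PJ34 to *Parp14*+/+ ratio of 1.133 (order-statistic 95% interval 1.086 to 1.176), against 1.043 over all genes with an interval, and a median *Parp14*−/− + PJ34 to *Parp14*−/− ratio of 0.9552 (0.9167 to 1.0) against 0.9231. At the 421 listed genes of the lost intervals the medians were 1.0 (1.0 to 1.031) and 0.8689 (0.8565 to 0.8846), against the same 1.043 and 0.9231. These heights hold the members themselves and were not tested.

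Gene groups were read by how many of their genes held a member, beside 2.23% (gained) and 5.93% (lost) of the 7356 protein-coding genes with an interval. Of 12 members of the PARP family with an interval, 2 held a gained one and 0 a lost one. *Tnks2*, tankyrase 2, had 10 and 8 fragments in the PJ34 libraries at its start, with the nearest untreated interval 11250 bp away, and *Parp9*, an interferon-induced PARP, had 7 and 9 inside the gene, 750 bp from an untreated interval. Over its 2 active regions *Parp9* had average heights of 11, 11.5, 15.5 and 17 in the library order. *Parp9* was also the single gene with a member among 24 interferon-induced genes. Of 23 genes of polymerase elongation, 4 (17.4%) held a lost interval and 0 a gained one. Besides *Ell* (17 and 11 at its start, 8 and 9 inside the gene), these included *Rtf1* of the PAF complex (8 and 6) and *Setd2*, which trimethylates lysine 36 of histone H3 (5 and 7).

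The average height over the gene was 11.25, 9.25, 10 and 8 for *Ell* in the library order. It was 6.88, 6.88, 6.5 and 5.63 for *Setd2*, where the lost call went with an equal gene-wide height in both *Parp14*+/+ libraries. Of 18 cell cycle genes, *Ccnd3* and *Ccne2*, cyclin E2 (6 and 8, in an interval that also covers *Ints8*), held a lost interval. The average height over *Ccne2* was 7.5, 7.5, 6.5 and 8.5 in the library order, not lower with PJ34. That over *Ccnd3*, given above, was lower with PJ34 in both genotypes. Of 29 T cell receptor and costimulation genes, *Cd4*, the coreceptor, held a gained one (6 and 5) and *Fyn*, a Src family kinase, a lost one (7 and 9). Average heights over the gene were 5.5, 6.5, 4 and 7 for *Cd4*. For *Fyn* they were 9, 9.33, 9.67 and 10, not lower with PJ34 although an interval was lost. *Ahr*, the aryl hydrocarbon receptor, was the gained gene of 10 other T helper genes (6 and 10), and *Trp53inp1* the lost gene of 18 p53 and DNA damage genes (7 and 6).

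The other lists held no member. These were the Th2 genes (16 with an interval), Th1 genes (12), immediate early and NF-κB feedback genes (32), heat shock and chaperone genes (12), integrated stress response genes (14), sterol synthesis genes (12), chemokine receptor and migration genes (16) and cytosolic ribosomal protein genes (75). B cell (2), myeloid (2) and CD8 T and NK markers (4) held none either. No member can be called at a place where all 4 libraries hold an interval. A count of 0 therefore does not show that polymerase on these genes did not change with PJ34.

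Base composition differed little from that of the libraries. The median GC content of intervals was 46% for gained and 43.1% for lost ones, against 44.9% and 44.6% of their libraries, and in the 200 bases at the summit 47% and 45% against 47% and 46.5%. The ratio of observed to expected CpG at the summit had medians of 0.2222 and 0.1862, against 0.2064 and 0.202. TTCNNNGAA was found in 18 gained windows (9.23%, 5.92 to 14.1%) against 6.03% of windows in the library, and the STAT6 motif in 10 (5.13%) against 4.73%. In lost windows these were 36 (6.41%) against 6.10% and 38 (6.76%) against 5.47%. AGATAA was in 9.23% of gained and 10.9% of lost windows, TGANTCA in 8.21% and 9.61%, and CCGGAAGT in 0 and 6, while all library windows held AGATAA in 10.0% and 10.1%, TGANTCA in 7.02% and 7.88% and CCGGAAGT in 0.924% and 1.07%. A match of letters is not a bound site. By chromosome, lost intervals ran up to 7.836% of the *Parp14*+/+ intervals on chromosome 13, which carries *Elmo1*, and 7.45% on chromosome 10, and gained ones from 0.7767% on chromosome 17 to 3.051% on the X chromosome.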

How the data were processed

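Chromatin immunoprecipitated for phosphoserine 2 RNA Polymerase II was sequenced in 4 Th2 cultures, with 1 library each and a pooled Input. The authors aligned reads with ELAND to mm9, equalized alignments, extended them to fragments and called intervals with SICER against Input, as named in the methods of the study and in the submitters' processing notes. They deposited each interval with the signal at its summit, a height of overlapping fragments, and a gene table whose signal is the average peak height over the active regions of a gene. Interval lengths were multiples of 150 bp. A further 8 value columns of the table belong to other libraries and were not used here.

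Overlaps were taken on intervals as deposited (Python 3.11.15, NumPy 2.4.6, SciPy 1.17.1), with genes and sequence from GENCODE on NCBIM37. Names in the gene table did not always fit their coordinates, so members were assigned to genes by coordinates, and a table line was used for a named gene where at least 50% of each lay in the other. Of 52 named genes, 7 had no such line. Genes counted their active regions from 2 kb before to 5 kb after the gene, which gave the number in the table for 11429 of 11608 lines. A height in a library without a call was taken where a table line covered 1 active region and that region held no interval of an excluded library. In addition, the table's heights in both libraries that hold the member had to equal the summit heights of the member and its partner. In 8316 of 8754 checks with an interval, the table's height equalled the tallest summit.

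No test was made, since no condition had a replicate. Shares carry 95% Wilson, heights exact Poisson, ratios Clopper-Pearson and medians order-statistic intervals. The rule was tested on simulated intervals. Named were the 12 highest at protein-coding genes and 5 longest of each group, the 3 highest at no gene, every listed gene at a member, and the genes said to have been chosen afterwards. Some items that this rule selects are not reported here. The members and gene lists were chosen with earlier results of these data known.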

Additional observations from a re-analysis of the deposited data

Results flagged for a closer look

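Each entry here moved one way with PJ34 in *Parp14*+/+ and the other way in *Parp14*−/−, and with 1 library per condition the difference was not tested. The number of intervals was 322 higher with PJ34 in *Parp14*+/+ (11692 to 12014) and fell by 1387 in *Parp14*−/− (10228 to 8841). The median interval length fell by 900 bp in *Parp14*+/+ (5250 to 4350 bp) and was 450 bp higher in *Parp14*−/− (4500 to 4950 bp).

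Among gained intervals, the height at *Nrf1* was 6 fragments higher with PJ34 in *Parp14*+/+ (7 to 13) and fell by 1 in *Parp14*−/− (12 to 11). The call at this place changed the same way in both genotypes.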

How the results depend on the processing

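The counts of members rest most on the height asked of an interval. With summit heights at or above the library median of 9 in both libraries there were 45 gained and 102 lost intervals, and with absence judged only against excluded intervals of that height there were 995 and 1689. With no excluded interval within 5 kb there were 86 and 292, and with at least 50% of the member covered in the other genotype's library 357 lost and 130 gained. Lost intervals outnumbered gained ones under each of the 8 alternatives for the count. The other settings stayed within 1.5 times of the reported counts, at 147 gained and 467 lost with no excluded interval within 1 kb, 169 and 530 at 1 kb or longer, 185 and 644 anchored on *Parp14*−/−, and 144 and 419 as merged regions. The median height of lost intervals was 8 in *Parp14*−/− against 7. The share at a gene was 72.31% (gained) and 78.47% (lost) with at least 50% of the interval inside the gene, and for lost intervals 83.63% with the coordinates of the gene table and 83.9% with no excluded interval within 5 kb. The median length was 2775 to 3150 bp (gained) and 3600 bp (lost) under its alternatives.

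No paired analysis was possible because each condition has 1 library and the labels give no replicate numbers that pair them. Leaving out a library was not possible for the same reason. Median heights of 7 or 8 fragments in the members leave wide counting intervals, and how near members lay to the calling threshold was not tested.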
